A study of Saccharomyces cerevisiae with 6 samples.

Results

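The genes described here are 32 budding yeast genes that encode the enzymes from hexokinase to alcohol dehydrogenase, the enzymes that set the level of fructose 2,6-bisphosphate, the dehydrogenases that start glycerol synthesis and the activators Gcr1 and Gcr2. They were chosen by name, as a pathway list, from the 5791 ORFs of the deposited RNA-Seq table, with no threshold on a measured value. Earlier results of these data were known when the list was chosen. All 32 were found and all passed the filter on low reads. In 10 families, 26 of them have at least 1 other member in the list, so that main and minor paralogs could be compared. Total RNA was depleted of rRNA and sequenced strand-specifically from 3 groups of 2 biological replicates each. WT-Glu is the wild type 25T0b (MATα ura3 his3 trp1) grown with glutamine, a preferred nitrogen source, and WT-Pro is the same strain grown with proline, a poor one. The dal80-Pro group is FV080 (MATa ura3 his3 trp1 dal80::kanMX) grown with proline, a strain that lacks the GATA repressor Dal80. All cultures had glucose as the carbon source and were harvested in mid-log phase, and all strains share the ura3, his3 and trp1 alleles. The dal80Δ strain is of the opposite mating type to the wild type, so effects of DAL80 and of mating type cannot be told apart.

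Glycolysis turns glucose into pyruvate, and in glucose medium budding yeast passes most of this pyruvate to ethanol through pyruvate decarboxylase and alcohol dehydrogenase. Many steps are encoded by paralogs, usually 1 strongly expressed gene and 1 or more genes that are weaker or that respond to other carbon sources or to stress. The strongly expressed genes are classical targets of the transcription factors Rap1, Gcr1 and Gcr2. Glycerol 3-phosphate dehydrogenase diverts carbon to glycerol, which serves redox balance and osmotic protection. Nitrogen catabolite repression (NCR) keeps genes for the use of poor nitrogen sources low while glutamine is present. Genes higher in proline are called NCR-sensitive, genes lower in proline revNCR-sensitive, and genes higher or lower in dal80Δ cells Dal80-repressed or Dal80-activated.

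Some of the paralogs are so alike that a 50-nt read cannot always tell them apart, and the sequences are shown to make this limit visible. The ORFs of TDH2 and TDH3, which encode glyceraldehyde 3-phosphate dehydrogenase, are identical at 95.8% of their 999 aligned bases, with a longest identical run of 173 bases, and TDH1 is 90.2% identical to TDH2 and 88.9% to TDH3. The following 60 bases of build R64 are the same in the 3 genes. They lie at chr7:883316-883375 on the minus strand in TDH3, chr10:454187-454246 on the minus strand in TDH2 and chr10:338706-338765 on the plus strand in TDH1, ORF positions 436 to 495.
TDH3, TDH2 and TDH1: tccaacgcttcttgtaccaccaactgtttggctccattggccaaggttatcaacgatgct
The stretch of 60 bases in which the genes differ most is at ORF positions 64 to 123 (TDH3 chr7:883688-883747, minus strand; TDH2 chr10:454559-454618, minus strand; TDH1 chr10:338334-338393, plus strand). Capitals mark bases that differ from TDH3, 12 in TDH2 and 17 in TDH1.
TDH3: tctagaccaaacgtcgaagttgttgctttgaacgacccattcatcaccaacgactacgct
TDH2: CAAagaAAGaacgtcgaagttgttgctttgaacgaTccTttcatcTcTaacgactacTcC
TDH1: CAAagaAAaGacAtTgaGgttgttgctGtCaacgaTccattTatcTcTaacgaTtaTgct
The enolase genes ENO1 and ENO2 are 94.8% identical over 1314 bases. The stretch in which they differ most is at ORF positions 340 to 399 (ENO2 chr8:451666-451725 and ENO1 chr7:1001266-1001325, both on the plus strand), where capitals mark the 13 bases of ENO1 that differ from ENO2.
ENO2: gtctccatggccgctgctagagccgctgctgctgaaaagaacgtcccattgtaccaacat
ENO1: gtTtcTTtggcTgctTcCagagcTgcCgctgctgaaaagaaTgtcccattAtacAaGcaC
The alcohol dehydrogenase genes ADH1 and ADH2 are 88.8% identical over 1047 bases, and their longest identical run has 189 bases. Capitals mark the 16 bases of ADH2 that differ from ADH1 at ORF positions 668 to 727 (ADH1 chr15:159868-159927 and ADH2 chr13:873611-873670, both on the minus strand).
ADH1: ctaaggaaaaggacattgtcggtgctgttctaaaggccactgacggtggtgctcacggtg
ADH2: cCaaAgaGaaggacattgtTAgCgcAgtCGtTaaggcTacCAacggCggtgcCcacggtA
Of all 50-base windows, 68.7% were unique in the genome for TDH2, 75.6% for TDH3, 84.3% for TDH1, 76.4% for each enolase gene, 86.0% for ADH1 and ADH2, 99.0% for PDC1 and PDC5 and 100% for the other members. With up to 2 mismatches to a paralog counted as a copy, a limit chosen after the data were seen, the share without a copy fell to 22.8% for TDH2, 28.4% for TDH3, 61.9% for TDH1, 43.8% for the enolase genes, 78.0% for ADH1 and ADH2 and 89.1% for PDC1 and PDC5. The authors counted uniquely mapped reads, so the levels of these 9 genes may rest on part of their length. Reads were sequenced in pairs of 50 nt, and a mate in a unique part could place a read from a shared part. The windows stand for single reads, so they do not give the part of each ORF that could be counted. Reads of a strong gene with sequencing errors could be placed on a weak paralog. The size of such an exchange was not tested.

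The 32 genes took a much smaller part of the ORF reads in proline than in glutamine. They held 16.2% and 18.0% of the ORF reads in the WT-Glu libraries, 5.65% and 5.83% in WT-Pro and 7.25% and 8.32% in dal80-Pro, out of 12304015 to 19968312 ORF reads per library. TDH3 alone held 3.44% and 3.76% in WT-Glu, 1.20% and 1.09% in WT-Pro and 1.26% and 1.51% in dal80-Pro. By density, the scaled reads per nucleotide of the ORF (tag/nt), 11 of the 20 densest ORFs in WT-Glu were among these genes, against 5 in WT-Pro and 8 in dal80-Pro. TDH3 was the densest of all 5791 ORFs in WT-Glu, rank 4 in WT-Pro and rank 2 in dal80-Pro. In these bulk samples fewer cells that express a gene and less RNA per cell cannot be told apart. Within the list the mean density in WT-Glu spanned from 0.0539 for ADH2 to 601 for TDH3.

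**Figure D1:**
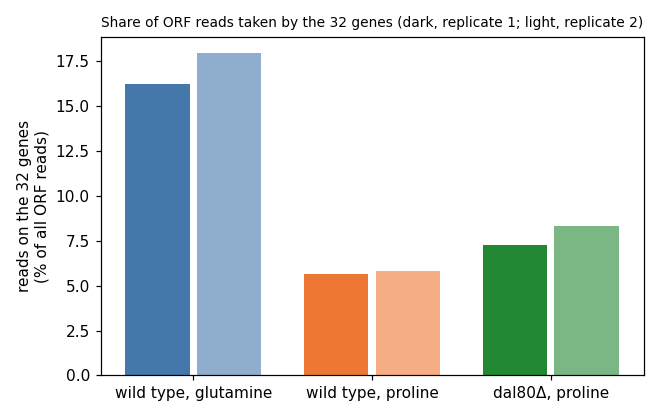
Share of all ORF reads (percent, y axis from 0) that fell on the 32 genes in each of the 6 libraries, with the first replicate in the dark and the second in the light bar of each group. The WT-Glu bars stand at 16.2% and 18.0%, above 5.65% and 5.83% in WT-Pro and 7.25% and 8.32% in dal80-Pro.

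**Figure D2:**
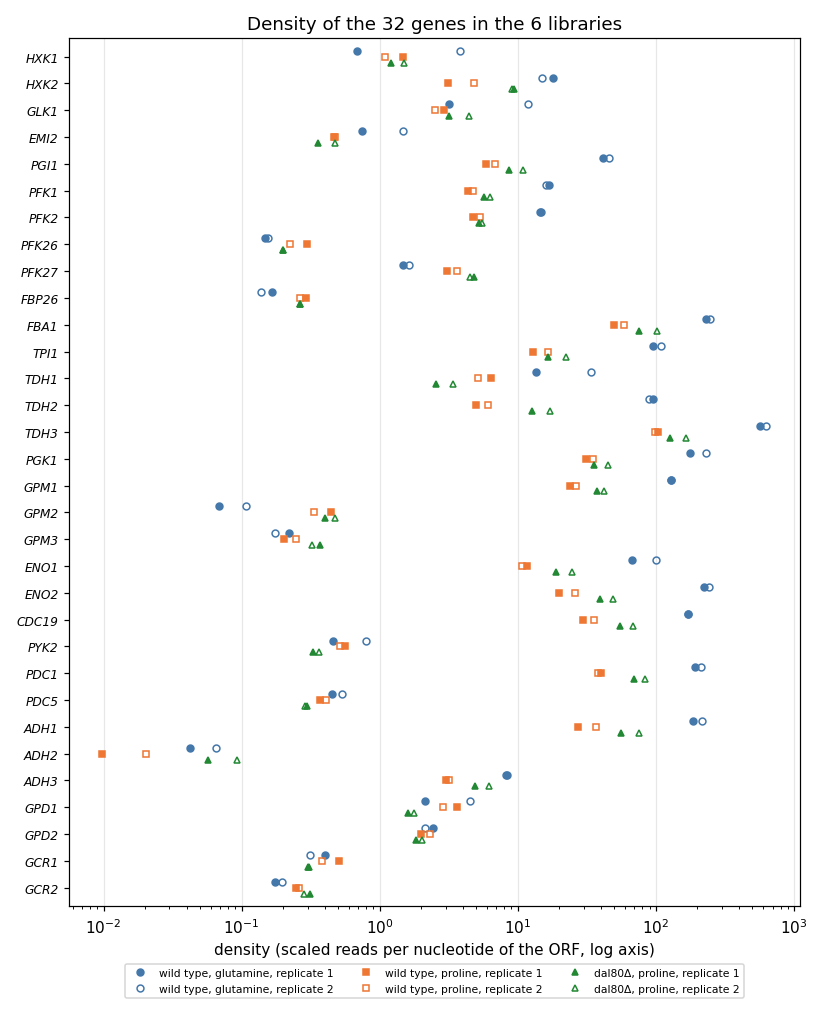
Density (scaled reads per nucleotide of the ORF, log axis) of each gene, in pathway order, in the 6 libraries. Colours and symbols stand for the groups, and filled and open symbols for replicates 1 and 2. The main glycolytic genes lie to the right in glutamine (TDH3 at 569 and 633) and move left in proline (103 and 98.1), while GPM2 moves the other way.

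Scaled reads are the deposited reads times 1 factor per library, and a gene was called at a limma adjusted p of at most 0.01 together with a change of at least 2-fold either way. In proline against glutamine, 18 of the 32 genes were lower (revNCR-sensitive), where 15.6% of all 5645 tested ORFs were, and 2 were higher (NCR-sensitive), where 13.0% of all were. The median log2 fold change was -1.68 for the 32 genes and 0.04 for all tested ORFs. Both WT-Pro libraries were below both WT-Glu libraries for 21 of the genes (40.5% of all ORFs) and above them for 5 (42.2% of all ORFs). In dal80Δ against wild-type cells in proline, 3 genes were higher (3.60% of all ORFs) and 0 lower (4.43% of all ORFs), with 14 and 6 at an unadjusted limma p under 0.05 (23.2% and 19.8% of all ORFs). DESeq2 called 4 higher and 0 lower (3.99% and 4.96% of all ORFs) and edgeR 3 and 0 (3.38% and 4.94%). Without the first WT-Pro library, or without either dal80-Pro library, 0 were higher, and without the second WT-Pro library 2 were. The groups did not overlap for 20 genes that were above (39.0% of all ORFs) and 6 that were below (32.8% of all ORFs) the wild type, and the median log2 fold change was 0.44 against 0.05 for all ORFs. Both comparisons share the WT-Pro libraries, so they are not independent of each other. The scaling matters for counts: with libraries scaled by total ORF reads, the normalization that the methods of the study describe, the median of all ORFs in proline against glutamine moved from 0.04 to 0.96 (0.16 with TMM factors), and 13 members were lower and 7 higher, with a median of -0.77. Under that scaling 3.35% of all ORFs were lower and 47.2% higher. Relative to the median ORF the fall of the list was thus about as large. With 2 libraries per group, the smallest p that an exact permutation test can give is 0.333.

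**Figure D3:**
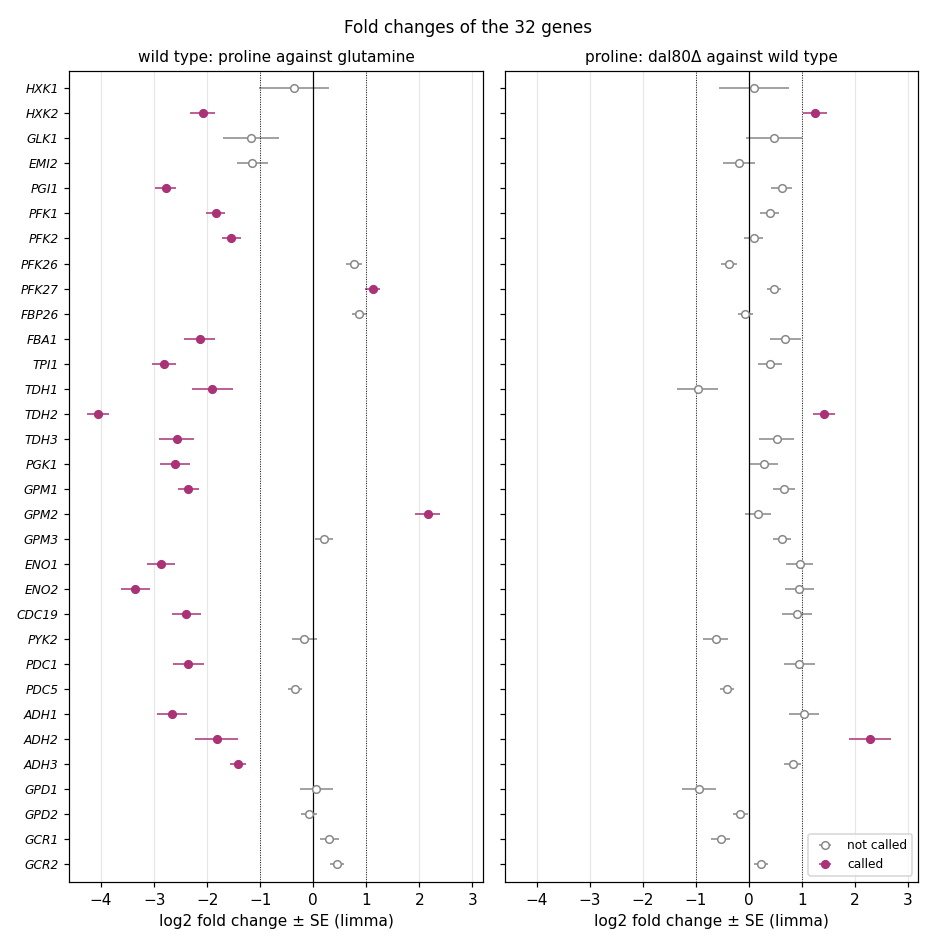
Log2 fold change with its standard error (limma) of each gene, in pathway order, for WT-Pro against WT-Glu on the left and dal80-Pro against WT-Pro on the right, with n = 2 libraries per group. Filled points are called genes, and dotted lines mark 2-fold changes. On the left 18 genes are called lower and GPM2 and PFK27 higher, and on the right HXK2, TDH2 and ADH2 are called higher.

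The glutamine replicates differed more from each other than those of the other groups. In the second WT-Glu library 158 of the tested ORFs were at least 2-fold above the first and 26 at least 2-fold below, while these counts were 28 and 27 in WT-Pro and 23 and 17 in dal80-Pro. Of the 32 genes, 4 were in the set of 158, namely HXK1, GLK1, TDH1 and GPD1, and none was 2-fold apart in the other groups. The deleted gene had 16 and 17.7 scaled reads in WT-Glu, 3537 and 2729 in WT-Pro and 6.15 and 2.75 in dal80-Pro, so it was high in WT-Pro alone. Of 4 α-specific genes, 4 were called lower in dal80-Pro than in WT-Pro (4.43% of all ORFs), and of 6 a-specific genes, 3 were called higher (3.60% of all ORFs). The a-specific genes not called were STE2 (log2 fold change 0.95), BAR1 (0.30) and AGA2, which was lower in the mutant (-1.11, limma adjusted p = 0.019). In WT-Pro against WT-Glu 6 of 6 a-specific genes were also called higher (13.0% of all ORFs), although both groups are MATα. The receptor gene STE2, for example, had 69.0 and 85.5 scaled reads in WT-Glu, 1131 and 918 in WT-Pro and 1894 and 2034 in dal80-Pro. The α-factor gene MF(ALPHA)1 had 38242 and 30843 in WT-Pro and 23.9 and 25.9 in dal80-Pro. What part these differences have in the values of the 32 genes was not tested.

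**Figure D4:**
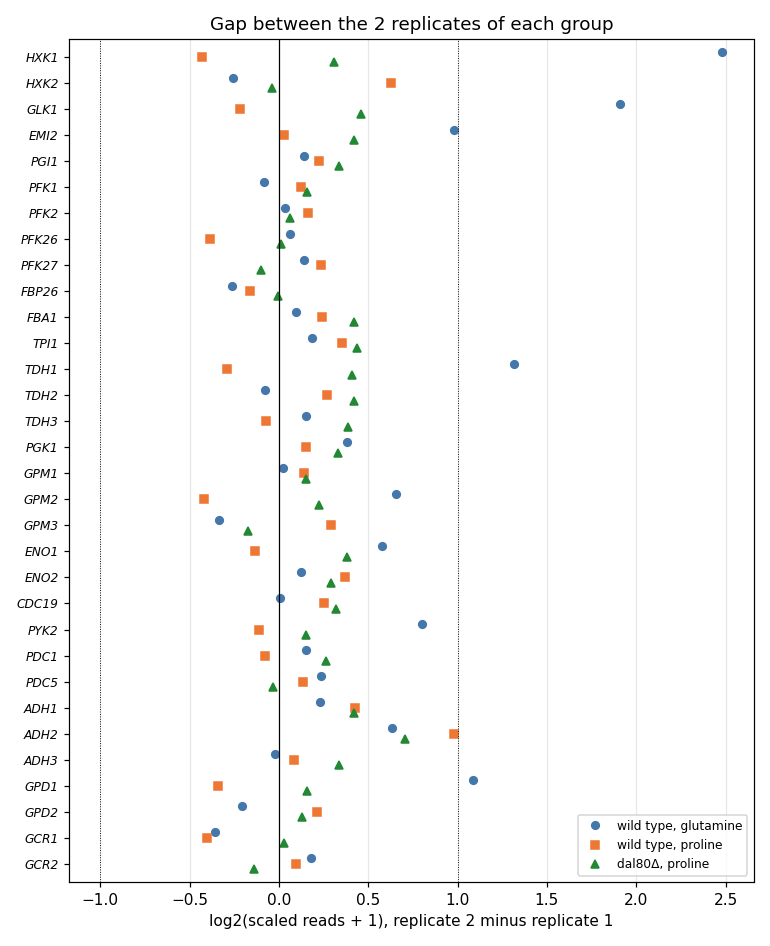
Difference of log2(scaled reads + 1) between replicate 2 and replicate 1 of each group (x axis) for each gene. Dotted lines mark 2-fold gaps. The WT-Glu points of HXK1 (2.48), GLK1 (1.91), TDH1 (1.32) and GPD1 (1.09) lie beyond them, and no WT-Pro or dal80-Pro point does.

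At the first step, phosphorylation of glucose, the glutamine replicates of HXK1 and GLK1 were further apart than those of any other member. HXK2, the main hexokinase gene on glucose and also a regulator of glucose repression, had 26329 and 22056 scaled reads in WT-Glu, 4564 and 7043 in WT-Pro and 13705 and 13359 in dal80-Pro. It was high in both glutamine libraries, lowest in wild-type cells in proline and in between in the mutant, with no overlap between groups. It fell in proline (log2 fold change -2.09, SE 0.23, limma adjusted p = 1.98e-04), a mean 4.17 times below that in glutamine, and was higher in dal80Δ than in wild-type cells (1.25, SE 0.23, limma adjusted p = 0.0066). The second call was lost without the first WT-Pro library (0.94, limma adjusted p = 0.039) and without the first or second dal80-Pro library (limma adjusted p = 0.054 and 0.052). With a replicate block this call was also lost (1.25, limma adjusted p = 0.017). With libraries scaled by total ORF reads HXK2 was at 0.996, just under the fold threshold.

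HXK1, the second hexokinase gene, had 1000 and 5591 scaled reads in WT-Glu, 2142 and 1591 in WT-Pro and 1768 and 2191 in dal80-Pro. GLK1, the glucokinase gene, had 4736 and 17770 in WT-Glu, 4390 and 3776 in WT-Pro and 4813 and 6625 in dal80-Pro. EMI2, a paralog of GLK1, had 1118 and 2202 in WT-Glu, 699 and 712 in WT-Pro and 537 and 718 in dal80-Pro. For HXK1 the glutamine libraries enclose the proline libraries, and for GLK1 and EMI2 they lie above those of WT-Pro. None of these genes was called in proline, with HXK1 at -0.36 (limma adjusted p = 0.65), GLK1 at -1.17 (limma adjusted p = 0.084) and EMI2 at -1.15 (limma adjusted p = 0.0103). Without the first WT-Glu library all 3 were lower (-1.60, -2.13 and -1.64, highest limma adjusted p = 1.16e-04 for HXK1), and EMI2 was also lower by edgeR (adjusted p = 0.0095) and DESeq2 (adjusted p = 1.35e-04). In the mutant they were at 0.09, 0.47 and -0.18, each with a limma adjusted p of at least 0.52.

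Of the summed density of the 4 hexokinase and glucokinase genes, HXK2 held 79.7% and 46.9% in WT-Glu, 39.2% and 54.2% in WT-Pro and 66.3% and 58.9% in dal80-Pro. GLK1 held 13.9% and 36.7%, then 36.6% and 28.2%, then 22.6% and 28.4%. The share of HXK2 in glutamine thus overlaps that in proline, and the first WT-Glu library is the one with an HXK2 share above all others. EMI2 held 2.52% to 5.83% and HXK1 3.04% to 18.4% over the 6 libraries.

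PGI1 (YBR196C), the glucose 6-phosphate isomerase gene, has no paralog in the list. It had 68901 and 75915 scaled reads in WT-Glu, 9729 and 11352 in WT-Pro and 14371 and 18110 in dal80-Pro. Its fall in proline was 6.87-fold on the means (log2 fold change -2.78, SE 0.20, limma adjusted p = 4.34e-05), and the values in the mutant lay between the others (0.62, limma adjusted p = 0.055).

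Both subunit genes of phosphofructokinase fell in proline. PFK1, for the α subunit, had 49906 and 47131 scaled reads in WT-Glu, 12958 and 14113 in WT-Pro and 16830 and 18790 in dal80-Pro. PFK2, for the β subunit, had 41795 and 42731 in WT-Glu, 13702 and 15309 in WT-Pro and 15120 and 15790 in dal80-Pro. On the log2 scale they fell by 1.84 (SE 0.18, limma adjusted p = 1.22e-04) and fell by 1.54 (SE 0.17, limma adjusted p = 2.22e-04). With libraries scaled by total ORF reads they were at -0.92 and -0.63 and no longer called. Neither passed in the mutant, PFK1 at 0.40 (limma adjusted p = 0.13) and PFK2 at 0.09 (limma adjusted p = 0.71). Of their summed density PFK1 held 53.7% and 51.7% in WT-Glu, 47.9% and 47.3% in WT-Pro and 52.0% and 53.6% in dal80-Pro, so that the larger share passed to PFK2 in WT-Pro alone, by a few percentage points (exact permutation test, two-sided, p = 0.333 in each comparison, the smallest possible).

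The genes that control fructose 2,6-bisphosphate, an activator of phosphofructokinase, included 1 of the 2 members that were higher in proline. PFK27, for an inducible 6-phosphofructo-2-kinase, had 1752 and 1932 scaled reads in WT-Glu, 3695 and 4348 in WT-Pro and 5774 and 5381 in dal80-Pro. It rose in proline (log2 fold change 1.12, SE 0.14, limma adjusted p = 3.61e-04), and the mutant libraries lay above the wild type without passing (0.48, limma adjusted p = 0.040). PFK26, for the other kinase, had 369 and 384 in WT-Glu, 733 and 560 in WT-Pro and 494 and 497 in dal80-Pro. FBP26, for the phosphatase that removes the activator, had 226 and 188 in WT-Glu, 400 and 357 in WT-Pro and 362 and 361 in dal80-Pro. For both, every WT-Pro library was above every WT-Glu library, by less than 2-fold on the fitted scale. PFK26 was at 0.76 (limma adjusted p = 0.0029) and FBP26 at 0.87 (limma adjusted p = 0.0011), and the latter was called without the first WT-Glu library (1.01). With libraries scaled by total ORF reads both were called (1.68 and 1.79). PFK27 held 82.3% to 91.2% of the density of the 3 genes in every library, with the highest shares, 91.2% and 90.6%, in dal80-Pro.

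Aldolase and triose phosphate isomerase are encoded by 1 gene each. FBA1 (YKL060C), for aldolase, had 250508 and 268053 scaled reads in WT-Glu, 54090 and 63855 in WT-Pro and 81873 and 109348 in dal80-Pro. TPI1 (YDR050C), for the isomerase, had 71526 and 81301 in WT-Glu, 9638 and 12308 in WT-Pro and 12388 and 16734 in dal80-Pro. Both fell in proline; FBA1 fell by 2.14 (SE 0.29, limma adjusted p = 5.24e-04) and TPI1 fell by 2.81 on the log2 scale (SE 0.23, limma adjusted p = 6.17e-05). In the mutant FBA1 was at 0.69 (limma adjusted p = 0.11) and TPI1 at 0.40 (limma adjusted p = 0.21).

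The TDH genes for glyceraldehyde 3-phosphate dehydrogenase gave the largest fall of the list, and the order of the groups in TDH1 differed from that in TDH2 and TDH3. TDH3 (YGR192C), the main gene, had 568407 and 632036 scaled reads in WT-Glu, 103175 and 97958 in WT-Pro and 126766 and 165508 in dal80-Pro. TDH2 (YJR009C) had 94545 and 89424 in WT-Glu, 5013 and 6045 in WT-Pro and 12758 and 17050 in dal80-Pro. TDH1 (YJL052W), which is known for its expression in cells that slow or stop growing, had 13567 and 33815 in WT-Glu, 6341 and 5178 in WT-Pro and 2553 and 3391 in dal80-Pro. TDH2 and TDH3 were therefore lowest in wild-type cells in proline, and TDH1 was lowest in the mutant.

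In proline TDH2 fell 16.6-fold on the means (log2 fold change -4.06, SE 0.21, limma adjusted p = 1.12e-05), TDH3 fell 5.97-fold (-2.58, SE 0.33, limma adjusted p = 3.89e-04) and TDH1 fell 4.11-fold (-1.90, SE 0.39, limma adjusted p = 0.0036). The call of TDH1 was lost without the first or second WT-Pro library (limma adjusted p = 0.018 and 0.029), without either dal80-Pro library (limma adjusted p = 0.0103 and 0.0102), with a fit of the compared groups alone (limma adjusted p = 0.0104) and with scaling by total ORF reads (-0.98). In dal80Δ cells TDH2 was higher than in the wild type (1.42, SE 0.21, limma adjusted p = 0.0028), while TDH3 was at 0.53 (limma adjusted p = 0.26) and TDH1 at -0.96 (limma adjusted p = 0.098). Without any 1 of the 4 libraries compared the call of TDH2 in the mutant was lost, at 1.29 and 1.56 without the first and the second WT-Pro library and 1.63 and 1.21 without the first and the second dal80-Pro library (limma adjusted p = 0.030, 0.013, 0.013 and 0.029).

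The share of TDH2 in the summed TDH density was 14.0% and 11.8% in WT-Glu, 4.38% and 5.54% in WT-Pro and 8.98% and 9.17% in dal80-Pro, with no overlap between groups. TDH1 held 2.01% and 4.48% in WT-Glu, 5.54% and 4.74% in WT-Pro and 1.80% and 1.82% in dal80-Pro. The share of TDH3 stayed between 83.7% and 90.1%. In WT-Pro TDH1 was thus about as dense as TDH2 (5.77 and 5.53 tag/nt on the means), whereas TDH2 was the denser in both other groups (14.9 against 2.97 tag/nt in dal80-Pro). The sequences shown above limit these shares, since only 22.8% of the TDH2 windows have no near copy in a paralog. In the annotated untranslated ends, whose sequences were not compared, reads were few. TDH2 had 219 and 142 scaled reads there in WT-Glu, 19.9 and 28.6 in WT-Pro and 48.5 and 40.8 in dal80-Pro. On these ends TDH3 held 52.2% of the TDH density in WT-Glu, against 83.9% on the ORFs. Ratios from the ends are therefore no check of those from the ORFs. The log2 ratio of TDH2 to TDH3 changed by -1.49 in proline and by 0.89 in the mutant on the ORFs, and by -0.54 and 0.92 on these ends. For TDH1 the same changes were 0.67 and -1.49 on the ORFs and 1.35 and -1.08 on the ends.

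PGK1 (YCR012W), the phosphoglycerate kinase gene, had 220665 and 286932 scaled reads in WT-Glu, 39197 and 43574 in WT-Pro and 44730 and 56334 in dal80-Pro. It fell 6.13-fold in proline (log2 fold change -2.61, SE 0.27, limma adjusted p = 1.68e-04). In the mutant it was at 0.28 (limma adjusted p = 0.46), the smallest value of the 4 enzymes with no paralog here.

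Among the phosphoglycerate mutase genes GPM1, the main paralog, fell in proline and the minor paralog GPM2 rose. GPM1 (YKL152C), which encodes the glycolytic enzyme, had 95030 and 96477 scaled reads in WT-Glu, 17807 and 19617 in WT-Pro and 28101 and 31184 in dal80-Pro. GPM2 (YDL021W), a homolog without a clear role in glycolysis, had 64 and 101 in WT-Glu, 419 and 313 in WT-Pro and 379 and 443 in dal80-Pro. GPM3 (YOL056W), another such homolog, had 200 and 158 in WT-Glu, 185 and 226 in WT-Pro and 335 and 297 in dal80-Pro. GPM1 was low in proline where GPM2 was high, with no overlap for either, and GPM3 overlapped between the wild-type groups.

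GPM1 fell in proline (log2 fold change -2.36, SE 0.20, limma adjusted p = 7.15e-05) and GPM2 rose 4.43-fold on the means (2.16, SE 0.24, limma adjusted p = 2.07e-04), the largest rise of the list. GPM3 was at 0.20 (limma adjusted p = 0.33), and with scaling by total ORF reads it was called as higher (1.12). In the mutant GPM1 was at 0.66 (limma adjusted p = 0.042), GPM2 at 0.18 (limma adjusted p = 0.60) and GPM3 at 0.62 (limma adjusted p = 0.031). GPM1 still held 97.4% to 99.8% of the density of the 3 genes, and the share of GPM2 went from 0.0534% and 0.0833% in WT-Glu to 1.82% and 1.24% in WT-Pro and 1.05% and 1.11% in dal80-Pro. GPM2 (chr4:413953-414888, plus strand) lies next to GPD1 (chr4:411825-413000, plus strand), whose values in proline and glutamine overlap.

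Both enolase genes fell in proline. ENO2 (YHR174W), the main gene on glucose, had 292400 and 318615 scaled reads in WT-Glu, 26199 and 33906 in WT-Pro and 52199 and 63909 in dal80-Pro. ENO1 (YGR254W) had 88072 and 131087 in WT-Glu, 15396 and 14000 in WT-Pro and 24997 and 32485 in dal80-Pro. The log2 fold changes in proline were -3.36 for ENO2 (SE 0.27, limma adjusted p = 6.09e-05), a 10.2-fold lower mean, and -2.87 for ENO1 (SE 0.26, limma adjusted p = 9.58e-05). In the mutant both lay above the wild type in each library without reaching the thresholds, at 0.95 and 0.96 (limma adjusted p = 0.034 and 0.031). ENO2 held 76.9% and 70.9% of the summed density in WT-Glu, 63.0% and 70.8% in WT-Pro and 67.6% and 66.3% in dal80-Pro, which in proline overlapped between the strains.

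At the last step of glycolysis CDC19 (YAL038W), the main pyruvate kinase gene, had 256629 and 257896 scaled reads in WT-Glu, 44847 and 53396 in WT-Pro and 82122 and 102498 in dal80-Pro. PYK2 (YOR347C), for a second pyruvate kinase that does not need activation by fructose 1,6-bisphosphate, had 695 and 1213 in WT-Glu, 847 and 785 in WT-Pro and 501 and 556 in dal80-Pro. CDC19 fell in proline (log2 fold change -2.39, SE 0.28, limma adjusted p = 2.51e-04), and PYK2, whose glutamine libraries enclose those in proline, was at -0.17 (limma adjusted p = 0.55). In the mutant CDC19 was at 0.91 (limma adjusted p = 0.043) and PYK2 at -0.63 (limma adjusted p = 0.084), so the pair had opposite signs and neither was called. The share of PYK2 was 0.267% and 0.463% in WT-Glu, 1.83% and 1.43% in WT-Pro and 0.599% and 0.533% in dal80-Pro.

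PDC1 (YLR044C), the main pyruvate decarboxylase gene, had 323164 and 358327 scaled reads in WT-Glu, 68160 and 64485 in WT-Pro and 117217 and 140500 in dal80-Pro. PDC5 (YLR134W), the minor gene known to be used when PDC1 is lost, had 768 and 904 in WT-Glu, 627 and 689 in WT-Pro and 501 and 490 in dal80-Pro. PDC1 fell in proline (log2 fold change -2.36, SE 0.29, limma adjusted p = 3.36e-04) while PDC5 was at -0.34 (limma adjusted p = 0.048). In the mutant PDC1 was at 0.95 (limma adjusted p = 0.043) and PDC5 at -0.41 (limma adjusted p = 0.048), and in each case the libraries did not overlap. PDC5 made up 0.237% and 0.252% of the pair's density in WT-Glu, 0.911% and 1.06% in WT-Pro and 0.425% and 0.347% in dal80-Pro. PDC6, another decarboxylase gene outside the list, had 26.0 and 35.4 scaled reads in WT-Glu, 220 and 255 in WT-Pro and 10640 and 4930 in dal80-Pro, more in the mutant than PDC5 in any library.

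The alcohol dehydrogenase genes differed in level by more than any other family. ADH1 (YOL086C), for the cytosolic enzyme that makes ethanol, had 194149 and 227855 scaled reads in WT-Glu, 28618 and 38453 in WT-Pro and 59019 and 79067 in dal80-Pro. ADH3 (YMR083W), for the mitochondrial enzyme, had 9402 and 9270 in WT-Glu, 3390 and 3593 in WT-Pro and 5513 and 6969 in dal80-Pro. ADH2 (YMR303C), for the glucose-repressed enzyme that oxidises ethanol, had 44.0 and 68.8 in WT-Glu, 10.3 and 21.2 in WT-Pro and 59.4 and 97.5 in dal80-Pro. All 3 were lowest in WT-Pro, without overlap with the other groups, and ADH2 was near the bottom of all ORFs in each group (rank 5191, 5594 and 5236 of 5791 by density).

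ADH1 fell in proline by 2.66 on the log2 scale (SE 0.29, limma adjusted p = 1.86e-04), ADH3 by 1.42 (SE 0.16, limma adjusted p = 2.05e-04) and ADH2 by 1.82 (SE 0.40, limma adjusted p = 0.0053). With scaling by total ORF reads ADH3 (-0.50) and ADH2 (-0.94) were not called. The call of ADH2 was also lost without the first WT-Pro library (limma adjusted p = 0.033), without either dal80-Pro library (limma adjusted p = 0.0102 and 0.0106) and in a fit of the compared groups alone (limma adjusted p = 0.0109). In dal80Δ cells ADH2 was higher (2.28, SE 0.40, limma adjusted p = 0.0058), a mean 4.98 times that of the wild type, on 15 and 29 reads in WT-Pro and 87 and 177 reads in dal80-Pro. This call was lost without the first WT-Pro library (1.79, limma adjusted p = 0.037) and without the first or second dal80-Pro library (2.64 and 1.93, limma adjusted p = 0.027 and 0.060). ADH1 (1.04, limma adjusted p = 0.031) passed the fold but not the p threshold, although DESeq2 called it, and ADH3 (0.83, limma adjusted p = 0.0077) passed p but not the fold.

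ADH2 never exceeded 0.114% of the summed ADH density, ADH1 held 90.1% to 96.3% and ADH3 went from 4.30% and 3.64% in WT-Glu to 9.90% and 7.98% in WT-Pro and 7.97% and 7.55% in dal80-Pro. Outside its ORF, in 234 bases of annotated untranslated ends, ADH2 had 0 to 3.85 scaled reads per library. These ends therefore do not show whether its ORF reads came from ADH2 itself or from ADH1, whose ORF is 88.8% identical.

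The glycerol 3-phosphate dehydrogenase genes differed between nitrogen sources by less than their replicates did. GPD1, known for its response to osmotic stress, had 2498 and 5301 scaled reads in WT-Glu, 4274 and 3367 in WT-Pro and 1876 and 2094 in dal80-Pro. GPD2, known for its role in redox balance without oxygen, had 3228 and 2796 in WT-Glu, 2640 and 3062 in WT-Pro and 2437 and 2661 in dal80-Pro. In proline GPD1 was at 0.06 (SE 0.32, limma adjusted p = 0.88) and GPD2 at -0.08 (SE 0.14, limma adjusted p = 0.64), with overlapping libraries. In the mutant GPD1 was at -0.94 (SE 0.32, limma adjusted p = 0.060), below the wild type in both libraries, and GPD2 at -0.16 (limma adjusted p = 0.43). GPD1 was the denser gene in WT-Pro (64.6% and 55.3% of the pair) and GPD2 in dal80-Pro (53.6% and 53.0%), and in WT-Glu the order differed between the replicates.

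GCR1 and GCR2, for the activators of the glycolytic genes, were low, and neither was called. GCR1 had 935 to 1565 scaled reads and GCR2 280 to 501 over the 6 libraries. In proline they were at 0.30 (limma adjusted p = 0.17) and 0.45 (limma adjusted p = 0.016), and in the mutant at -0.53 (limma adjusted p = 0.058) and 0.23 (limma adjusted p = 0.21). With scaling by total ORF reads both were called as higher in proline (1.22 and 1.37). The deposited GCR1 row covers 3109 bases, intron included.

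Set side by side by role, 8 of the 10 main paralogs, defined as the densest of each family over the 6 libraries, were lower in proline and 1, PFK27, was higher, with a median log2 fold change of -2.36. Of the 16 other paralogs 6 were lower and 1, GPM2, was higher, with a median of -0.75. All 4 enzymes with no paralog in the list were lower, from -2.14 to -2.81. These medians are descriptions, since levels in the same libraries defined the main paralogs. In the mutant 1 of the main and 2 of the other paralogs were higher. The log2 ratios of PYK2 and PDC5 to the main gene of their family changed by 2.22 and 2.02 in proline and by -1.53 and -1.36 in the mutant. In proline PYK2 and PDC5 themselves were at -0.17 and -0.34, while CDC19 and PDC1 were at -2.39 and -2.36. The shares of PYK2 and PDC5 did not overlap between groups (exact permutation test of the shares, two-sided, p = 0.333, the smallest possible). Most shares had no overlap either, 20 of 26 in proline against glutamine and 21 of 26 in the mutant against the wild type. Shares within a family depend on each other, so the 26 are not independent. Some gaps were small, such as that of ENO2 between 70.9% in the second WT-Glu and 70.8% in the second WT-Pro library. The ratio of GPM3 to GPM1 changed by 2.56 in proline, more than those of PYK2 and PDC5, and by -0.04 in the mutant. GPM3 itself was at 0.20 in proline. Outside the ORFs the changes of PYK2 and PDC5 were 1.83 and 1.46 in proline and -0.95 and -1.08 in the mutant. There PDC1 held 44.2% of the density of the PDC pair in WT-Glu, against 99.8% on the ORFs. Values outside the ORFs are therefore no check of those on them. The ratio of GPM2 to GPM1 changed by 4.51 in proline and by -0.49 in the mutant, and outside the ORFs, where GPM2 had at most 4.11 scaled reads per library, by 2.29 and -0.45.

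**Figure D5:**
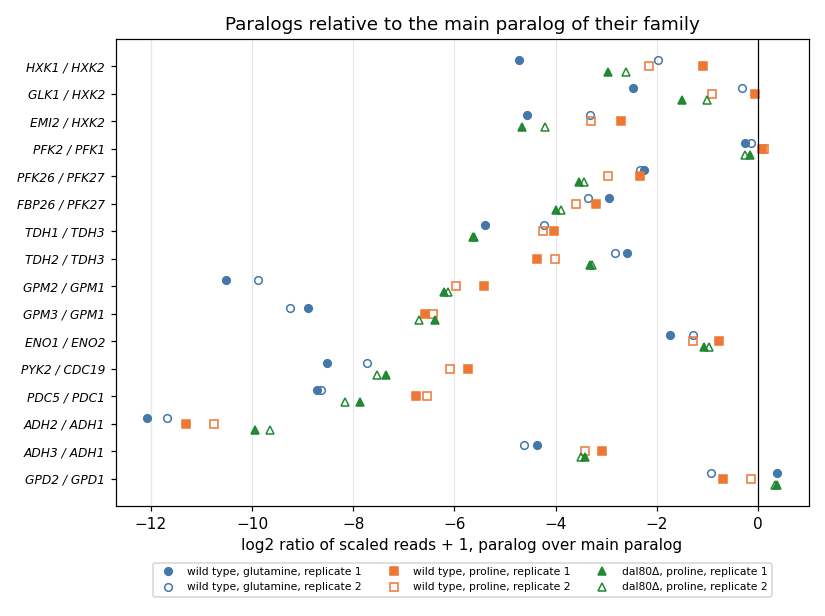
Log2 ratio of each paralog to the main paralog of its family (scaled reads + 1, not divided by length) in the 6 libraries, with colours and symbols for the groups and filled and open symbols for replicates 1 and 2. GPM2, GPM3, PYK2, PDC5 and ADH3 are among the paralogs that move right from glutamine to wild type in proline, and TDH2 moves left. Of those named as moving right, only GPM2 was itself called higher in proline, and ADH3 was called lower. The HXK1 and GLK1 points of the first WT-Glu library lie left of all others in their rows.

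Of 27 other genes, for side branches, glycerol use, acetaldehyde use and further regulators, 26 passed the filter, 3 were higher in proline (13.0% of all tested ORFs) and 4 lower (15.6%), with a median log2 fold change of 0.10. These counts are near the shares of all ORFs. The higher ones were PDC6 (2.92), GUT2 (1.56), for the mitochondrial glycerol 3-phosphate dehydrogenase, and GCY1 (1.55), for a glycerol dehydrogenase. The lower ones were the phosphoglucomutase gene PGM1 (-2.06), ADH6 (-1.89), for an NADPH-dependent alcohol dehydrogenase, the dihydroxyacetone kinase gene DAK1 (-1.33) and SFA1 (-1.18), for a formaldehyde and long-chain alcohol dehydrogenase. In the mutant PDC6 (4.93) and the aldehyde dehydrogenase gene ALD2 (1.72) were higher, and ADH5 (-3.14) and ALD5 (-1.09), for further alcohol and aldehyde dehydrogenases, were lower, with a median of 0.08 (3.60% of all ORFs were higher and 4.43% lower).

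In the 500 bases before the start codon, motifs of the factors named above were searched on both strands. CTTCC, the core bound by Gcr1, was present before 25 of the 32 genes and before 65.6% of all 5770 promoters, and CACCCA, a core of Rap1 sites, before 8 and before 14.2%. HXK2, TDH3 and PDC1, main paralogs that fell in proline, were among the genes with neither of these motifs. The other main paralogs that fell, PFK1, GPM1, ENO2, CDC19 and ADH1, each had CTTCC. The starts of a CACCCA and a CTTCC were within 50 bases of each other, a distance chosen after the data were seen, in 4, namely PGI1, GPM1, ENO1 and GCR1, and in 3.05% of all promoters. The 3 windows of enzyme genes that fell in proline are shown to place both motifs, which are in capitals and read CACCCA or TGGGTG and CTTCC or GGAAG by strand. They end 341 bases (PGI1, chr2:614241-614283, minus strand), 343 bases (GPM1, chr11:164728-164790, minus strand) and 453 bases (ENO1, chr7:1000434-1000474, plus strand) before the start codon.
PGI1: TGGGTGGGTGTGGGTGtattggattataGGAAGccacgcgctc
GPM1: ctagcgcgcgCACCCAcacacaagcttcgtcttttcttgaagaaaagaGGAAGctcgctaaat
ENO1: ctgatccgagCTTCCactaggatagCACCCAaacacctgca
The GATA motif GATAA was before 19 of the genes, against 78.2% of all promoters, and GATTAG before 2, PFK2 and ADH2, against 17.04%. TDH2, TDH3 and PDC1 were among the genes with neither GATA motif, HXK2 had 1 GATAA, ADH2 had 1 of each and GPM2 had 4 GATAA. A match is a description of the letters in this window and does not show that a factor binds. A missing match does not show that none binds. The authors found Dal80 at some promoters without a GATA site, and took the TDH3 promoter as an example of a bound one.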

How the data were processed

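The authors aligned paired-end 50-nt reads with TopHat to build R64 and counted uniquely mapped reads per feature. The deposited table holds 11987 features, of which 5791 nuclear and mitochondrial ORFs were used. The first WT-Glu column holds whole counts as deposited. The other 5 columns hold a signal, reads that the authors multiplied by 1 factor per library (0.551 to 0.983), and densities are these values per nucleotide. The methods describe a normalization on the total of uniquely mapped ORF reads, but the scaled ORF totals differ between libraries (8.60e+06 to 1.68e+07), so scaling by total ORF reads was run as an alternative to the deposited values. Division by the factor gave whole reads for 100% of values (tolerance 1e-06). The authors' means and densities entered no test.

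Log2(scaled reads + 1) of 5645 ORFs kept by filterByExpr was fitted with limma 3.58.1 (R 4.3.3), a trend and 1 term per group over all 6 libraries, with 3 residual and 4.54 prior degrees of freedom. P-values were adjusted by Benjamini-Hochberg over all 5645. The adjusted p had to be at most 0.01 and the log2 fold change at least 1 in size. This scale understates changes of genes with few reads. edgeR 4.0.16 and DESeq2 1.42.0 on recovered reads were alternatives, as were TMM factors, total ORF reads, pseudocounts of 8 and 0.5, no filter, rows with untranslated ends, the compared groups alone, a replicate block and each library left out. All 3 tools were run on simulated counts with planted changes and the same spread parameter for every gene. That setting does not model the gaps between the replicates of these libraries. Shares of paralogs came from densities, and were compared by exact permutation tests.

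ORF coordinates of all 32 genes were those of the RefSeq annotation of R64, and sequences were read from that genome. Every member is named, with the value in each library for called genes and members of paralog families; of the other pathway genes only called ones are named. The members and lists were chosen with earlier results of these data known. Whether replicate numbers pair cultures is not stated, so the main fit has no block. The limma p-values rest on the spread between 2 cultures per group, pooled over the 3 groups and moderated with the spread of other ORFs. Reads carry no molecular identifiers.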

Additional observations from a re-analysis of the deposited data

How the results depend on the processing

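The members lower in proline numbered 18, and 13 to 21 over the 17 alternatives, with 13 when scaled by total ORF reads; those higher numbered 2, and 7 when scaled by total ORF reads. Leaving out 1 library gave 16 to 21 lower and 2 to 3 higher members. In the mutant 3 were higher, and 0 to 3 with 1 library left out, with 0 without the first WT-Pro library or either dal80-Pro library, and 0 lower throughout. No called member changed direction. Replicate numbers share no stated pairing, and differences between same-numbered replicates correlated at -0.24 (WT-Glu and WT-Pro), 0.18 (WT-Glu and dal80-Pro) and 0.03 (WT-Pro and dal80-Pro). The replicate block gave 19 lower and 2 higher members in proline and 2 higher in the mutant, where HXK2 lost its call (1.25, limma adjusted p = 0.017). With the glutamine numbers crossed, chosen after seeing the data, 18 were lower and 2 higher.

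With scaling by total ORF reads 2662 ORFs were higher and 189 lower in proline (733 and 878 as deposited), and in the mutant 139 and 440 (203 and 250). Leaving out 1 of the compared libraries left 75 to 167 higher and 126 to 196 lower ORFs in the mutant.

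From rows that include untranslated ends, the share of PFK27 was 81.6% in WT-Glu and 89.9% in dal80-Pro, of GPM1 99.77% and 97.9%, of CDC19 99.4% in dal80-Pro, of PDC1 99.7% in WT-Glu, of ADH1 97.2%, 93.6% and 94.4% in WT-Glu, WT-Pro and dal80-Pro, and of GPD1 44.3% in dal80-Pro. From reads outside the ORF alone, the shares in WT-Glu, WT-Pro and dal80-Pro were 75.5%, 67.5% and 71.1% for PFK1, 88.8%, 90.5% and 95.0% for PFK27, 52.2%, 49.6% and 46.6% for TDH3, 44.1%, 41.0% and 40.4% for ENO2, 74.6%, 45.6% and 62.3% for CDC19, 44.2%, 22.2% and 37.5% for PDC1, and 10.02%, 2.47% and 1.52% for GPD1. These rest on few reads: TDH3 had 1.41 scaled reads per nucleotide outside the ORF and 569 inside it in the first WT-Glu library. Families with a library at 0 reads there gave no value. The cause was not tested.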
